A study of Mus musculus with 30 samples.

Results

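The Cxcl12 chemokine axis is described here through 4 genes in developing mouse cortex with and without Tbr1. The genes are the secreted ligand Cxcl12, its receptors Cxcr4 and Ackr3, and the related chemokine Cxcl14. They were taken by name, as the probe sets in both array tables whose single gene symbol was one of the 4. Where a gene had several such probe sets, the one with the highest mean signal was used. All 4 genes were found at both stages, among 18194 genes with a single-gene probe set in the E14.5 table and 19938 in the P0.5 table.

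The mutant mice were homozygous null for Tbr1 (Tbr1 -/-, called KO below) and their controls were wild type (WT). Both were on the CD1 background, and nulls came from crosses of heterozygous parents, so every cell of a KO animal carried the null genotype. RNA was hybridised to 30 Affymetrix arrays. At E14.5 there were 3 KO and 3 WT samples of neocortex. At P0.5 there were 4 KO and 4 WT samples each of frontal, parietal and occipital tissue, which the labels call brain. The labels do not state the sex of the animals or whether samples were pooled, and nothing in them says which samples came from separate animals, so the p-values measure only the spread between these samples. In bulk tissue, fewer cells of a type and less RNA per cell cannot be told apart.

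Cxcl12 binds Cxcr4, a G protein-coupled receptor through which migrating cells read the ligand, and Ackr3, an atypical receptor that takes Cxcl12 up and signals through arrestin. In the embryonic mouse cortex Cxcl12 is made by the meninges, by progenitors of the subventricular zone and by blood vessels. Cajal-Retzius cells and GABAergic interneurons carry Cxcr4 and use Cxcl12 to stay in their migratory streams, and interneurons also need Ackr3. Cxcl14 is a secreted chemokine made by some interneurons, and its receptor is less well settled.

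The Tbr1 transcript was lower in KO than in WT samples without overlap in each of the 4 tissue groups. At E14.5 its log2 signal was 8.69, 7.23 and 7.57 in KO neocortex, against 9.36, 8.89 and 9.11 in WT neocortex (difference -1.29, adjusted p = 0.850, not called). Over the P0.5 regions the KO minus WT difference was -0.68 (SE 0.0631, limma with Benjamini-Hochberg adjustment over all genes, adjusted p = 1.2e-05). Whether these probe sets lie in the deleted part of the gene is not given in the sources used here. The 6 markers of neocortical projection neurons averaged 9.35 to 9.65 in KO arrays and 9.15 to 9.59 in WT arrays at P0.5. Over the regions Neurod1 was called higher in KO tissue (1.19, adjusted p = 1.2e-06) and Neurod6 lower (-0.40, adjusted p = 1.4e-04), where 7.46% of all genes were called. The list mean therefore combines genes that moved in opposite directions. The mean of 3 Y-linked genes was 5.09 to 5.99 in the 4 KO frontal arrays and 8.99 to 9.15 in the 4 WT frontal arrays, so in frontal tissue sex and genotype cannot be told apart. It lay above 8 in 2 of 4 KO and 3 of 4 WT parietal arrays and in 3 of 4 KO and 4 of 4 WT occipital arrays. For each of the 4 KO numbers and for WT number 2 it was high in one region and low in another, so these numbers do not mark 1 animal across regions. Over the regions the 3 Y-linked genes were called lower in KO tissue: Eif2s3y (-2.56, adjusted p = 1.1e-04), Uty (-1.83, adjusted p = 5.6e-04) and Kdm5d (-1.30, adjusted p = 0.00118). Sex and genotype are therefore not fully told apart over the regions either. Xist, a marker of female cells, was 11.96 to 12.20 in KO frontal and 5.65 to 6.39 in WT frontal arrays. It was intermediate in KO occipital arrays 2 and 4 (7.75 and 8.77), KO parietal arrays 1 and 3 (8.55 and 7.88) and WT parietal array 3 (8.65). These arrays had a Y-linked mean above 8, and whether their samples mixed tissue of both sexes was not tested.

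The stretch before the transcription start is shown for the 3 genes that form the ligand and receptor pairs. Tbr1 is a T-box transcription factor, and Cxcl12 and Cxcr4 were each called lower in KO tissue over the P0.5 regions. Whether Tbr1 acts on these genes was not tested. The sequences are the 250 bases upstream of the start in RefSeq on GRCm38.p6, 5′ to 3′ on the strand of the gene, and the build behind the arrays is not given in the sources used here. Cxcl12 lies at chr6:117168535-117181368 on the plus strand, with its upstream stretch at chr6:117168285-117168534. Cxcr4 lies at chr1:128588199-128592299 on the minus strand (stretch chr1:128592300-128592549). Ackr3 lies at chr1:90203980-90215724 on the plus strand (stretch chr1:90203730-90203979). Cxcl14 lies at chr13:56288643-56296811 on the minus strand, and its stretch, searched but not shown, is chr13:56296552-56296801. That stretch is the one before the start in the RefSeq promoter table and lies inside the gene's span, so it is not the 250 bases before the outermost start, as it is for the other 3 genes. Capitals mark the GC box GGGCGG and the TATA box TATAAA, each searched on both strands.
Cxcl12: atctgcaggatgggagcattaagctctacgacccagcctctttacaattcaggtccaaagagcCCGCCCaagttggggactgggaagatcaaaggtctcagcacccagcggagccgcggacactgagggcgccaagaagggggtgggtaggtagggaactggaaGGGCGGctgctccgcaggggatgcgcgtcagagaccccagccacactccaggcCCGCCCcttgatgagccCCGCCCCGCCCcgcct
Cxcr4: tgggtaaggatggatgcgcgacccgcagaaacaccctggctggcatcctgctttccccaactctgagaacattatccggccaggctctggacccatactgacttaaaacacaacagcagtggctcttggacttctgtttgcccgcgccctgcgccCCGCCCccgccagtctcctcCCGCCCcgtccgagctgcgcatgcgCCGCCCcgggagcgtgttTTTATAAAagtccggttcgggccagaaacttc
Ackr3: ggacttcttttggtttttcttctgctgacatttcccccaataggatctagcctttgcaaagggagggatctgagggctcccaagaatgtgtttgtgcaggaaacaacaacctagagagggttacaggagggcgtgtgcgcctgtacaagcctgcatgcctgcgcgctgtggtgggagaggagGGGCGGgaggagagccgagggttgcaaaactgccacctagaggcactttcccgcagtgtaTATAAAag

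The Cxcl12 stretch held 5 matches to the GC box, of which the 2 nearest the start share a base, and none to the TATA box. Cxcr4 held 3 GC boxes and 2 overlapping TATA boxes on opposite strands, 32 and 30 bases before the start. Ackr3 held 1 of each. Of 32851 mouse promoters of the same length, 32.7% held the GC box and 12.4% the TATA box. The T-box half-site GGTGTGA, also searched on both strands, was in none of the stretches of Cxcl12, Cxcr4 and Ackr3, nor in the Cxcl14 stretch inside the gene's span, and in 3.33% of all. These are matches of letters in a short window.

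Cxcl12 was lower in KO than in WT tissue at P0.5 over the 3 regions, by 1.63-fold. Its mean over the regions for numbers 1 to 4 was 7.14, 7.23, 7.25 and 6.93 in KO tissue, against 8.26, 7.43, 7.43 and 8.24 in WT tissue. Every KO value lay below every WT value, and WT numbers 1 and 4 stood above WT numbers 2 and 3. As these numbers do not all mark 1 animal across regions, the overlap, SE and adjusted p depend on grouping the arrays by number. The log2 difference was -0.70 (SE 0.167, 95% interval -1.06 to -0.34, adjusted p = 0.0181 in limma). Of all 19938 genes, 7.46% were called in this comparison and 2.75% were called lower, against 2 of the 4 members, both lower. The groups did not overlap for 12.5% of all genes. The Cxcl12 call ended without KO number 1 (adjusted p = 0.0514), without KO number 4 (0.0651) and without WT number 4 (0.0596). It also ended with the Y-linked mean as a covariate, where the difference was -0.31 (adjusted p = 0.9998) over the 8 averaged values and -0.74 (SE 0.240, adjusted p = 0.0915) over the 24 arrays, a fit added after the data were seen. The Y-linked genes were themselves called lower in KO tissue over the regions. Over the 8 averaged values this covariate therefore runs with genotype, and that fit cannot part the effects of sex and genotype. The Cxcl12 difference over the regions cannot be fully told apart from a difference in sex.

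By region, the Cxcl12 difference had the same sign everywhere and passed the test nowhere. In frontal tissue its signal was 6.88, 7.85, 7.58 and 6.94 in KO samples, against 8.69, 7.65, 7.52 and 9.31 in WT samples. WT replicates 1 and 4 were high, and the other 2 WT samples lay inside the KO range. The frontal difference was -0.98 (SE 0.314, 95% interval -1.63 to -0.33, adjusted p = 0.0547), the nearest of any region to the threshold of 0.05, where 7.52% of all genes were called. Without WT frontal replicate 4 it was -0.64 (adjusted p = 0.275), and without WT frontal replicate 3 it was -1.24 (adjusted p = 0.0212).

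In parietal tissue the spread of Cxcl12 was small and the groups separated. Its signal was 6.75, 7.16, 7.02 and 6.92 in KO samples, against 7.61, 7.41, 7.58 and 7.33 in WT samples. The parietal difference was -0.52 (SE 0.314, adjusted p = 0.730), with an SE that the 6 groups shared. A fit of the 8 parietal arrays alone gave the same difference with an adjusted p of 0.0167. The groups did not overlap for 7.41% of all genes in parietal tissue, and 1.81% were called. In occipital tissue the signal was 7.78, 6.69, 7.14 and 6.94 in KO samples, against 8.48, 7.24, 7.19 and 8.08 in WT samples, and the ranges overlapped. That difference was -0.61 (SE 0.314, adjusted p = 0.500), where 1.34% of all genes were called. Among the arrays with a Y-linked mean above 8, the difference was -0.62 in parietal and -0.61 in occipital tissue, both not called. This alternative was added after the data were seen, and it kept the arrays with intermediate Xist.

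From low to high, the mean Cxcl12 levels were 6.97 ± 0.17 in KO parietal, 7.14 ± 0.46 in KO occipital, 7.31 ± 0.48 in KO frontal, 7.48 ± 0.14 in WT parietal, 7.75 ± 0.63 in WT occipital and 8.29 ± 0.86 in WT frontal tissue (SD, n = 4 each). Each neighbour in this order differed by less than the SD of at least one of the pair. The regions kept the same order in both genotypes. WT frontal tissue exceeded WT parietal tissue by 0.81 (SE 0.314, adjusted p = 0.332) and the KO difference was 0.35 (adjusted p = 0.870).

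**Figure D1:**
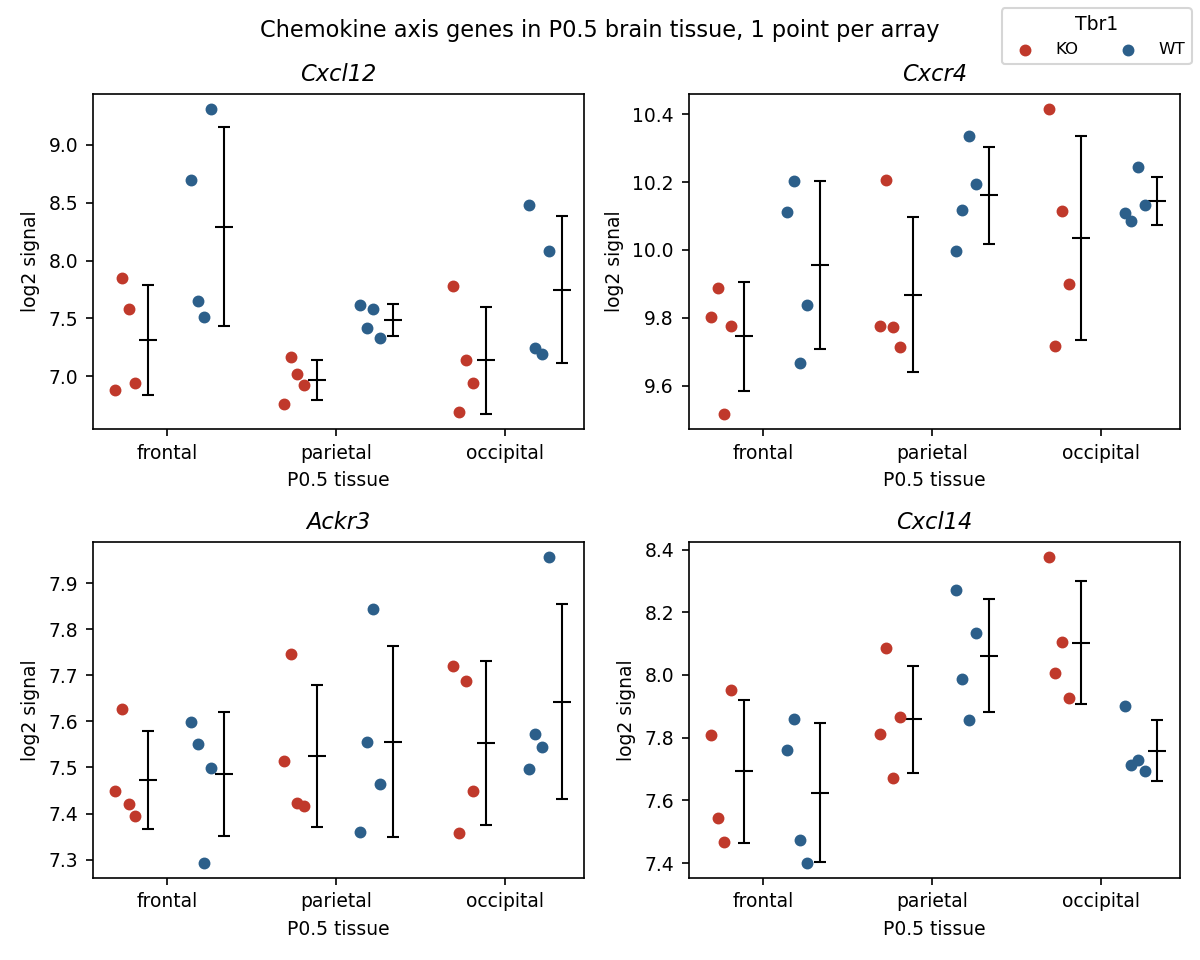
Log2 signal of Cxcl12, Cxcr4, Ackr3 and Cxcl14 in P0.5 frontal, parietal and occipital tissue, with KO in red and left of WT in blue, 1 point per array and the mean with SD as a bar (4 arrays per group). Cxcl12 is separated by genotype in parietal tissue, while its WT frontal arrays run from 7.52 to 9.31, and Cxcl14 is separated in occipital tissue with KO above WT.

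Cxcl12 varied with blood vessel genes from array to array. The 3 genes most like Cxcl12 over the 24 P0.5 arrays were Uaca (Pearson r = 0.981), Cd93 (r = 0.975), a surface receptor of endothelium, and Kdr (r = 0.968), the main endothelial VEGF receptor. Over the regions, Kdr differed by -0.66 between KO and WT (adjusted p = 0.00837), Cd93 by -0.57 (adjusted p = 0.0232) and Uaca by -0.36 (adjusted p = 0.0731). The mean of 9 endothelial genes correlated with Cxcl12 at r = 0.974 (Spearman rho = 0.967), at 0.942 without the 2 arrays farthest from its median, and at 0.964 within the 12 KO arrays and 0.982 within the 12 WT arrays. These are descriptions of 24 arrays that share normalisation, so no p is given.

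Few endothelial genes were called between genotypes. In frontal tissue 2 of the 9 were, both lower in KO tissue, where 7.52% of all genes were called: Kdr (-0.89, adjusted p = 0.0396) and Tie1 (-0.45, adjusted p = 0.0376), a receptor tyrosine kinase of endothelium. Over the regions 1 of the 9, Kdr, was called, where 7.46% of all genes were. All 9 differences were negative, with a median of -0.25, against -0.013 over all genes. The list mean was 7.57 to 8.22 in KO frontal and 7.87 to 8.93 in WT frontal arrays. It was 7.55 to 7.64 in KO parietal and 7.67 to 7.99 in WT parietal arrays, and 7.60 to 8.14 in KO occipital and 7.69 to 8.33 in WT occipital arrays. The ranges of the 2 genotypes overlapped in frontal and occipital tissue and did not in parietal tissue. The part of vessel RNA in the Cxcl12 difference was not tested.

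Meningeal genes were high in the frontal arrays with the highest Cxcl12 values. The mean of 12 meningeal fibroblast genes was 7.10, 8.33, 8.15 and 6.89 in KO frontal arrays, against 8.75, 7.16, 6.87 and 9.32 in WT frontal arrays, high in the same arrays as Cxcl12. In parietal tissue, where Cxcl12 separated by genotype, the meningeal mean was 6.98 to 7.08 in KO arrays and 6.78 to 7.82 in WT arrays. None of the 12 was called over the regions, and 0 of 7 pericyte genes was, where 7.46% of all genes were. The median difference was -0.43 for the meningeal list and -0.14 for the pericyte list. The correlation of Cxcl12 with the meningeal mean was r = 0.864, and 0.747 without the 2 farthest arrays (Spearman rho = 0.599). It was 0.914 within the KO arrays, 0.928 within the WT arrays and 0.935 once group means were removed. With the pericyte mean Cxcl12 correlated at r = 0.887, and at 0.890 once group means were removed. None of 8 intermediate progenitor genes, the other cortical source of Cxcl12, was called over the regions (median difference 0.004). The part of meningeal RNA in the Cxcl12 difference was not tested.

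**Figure D2:**
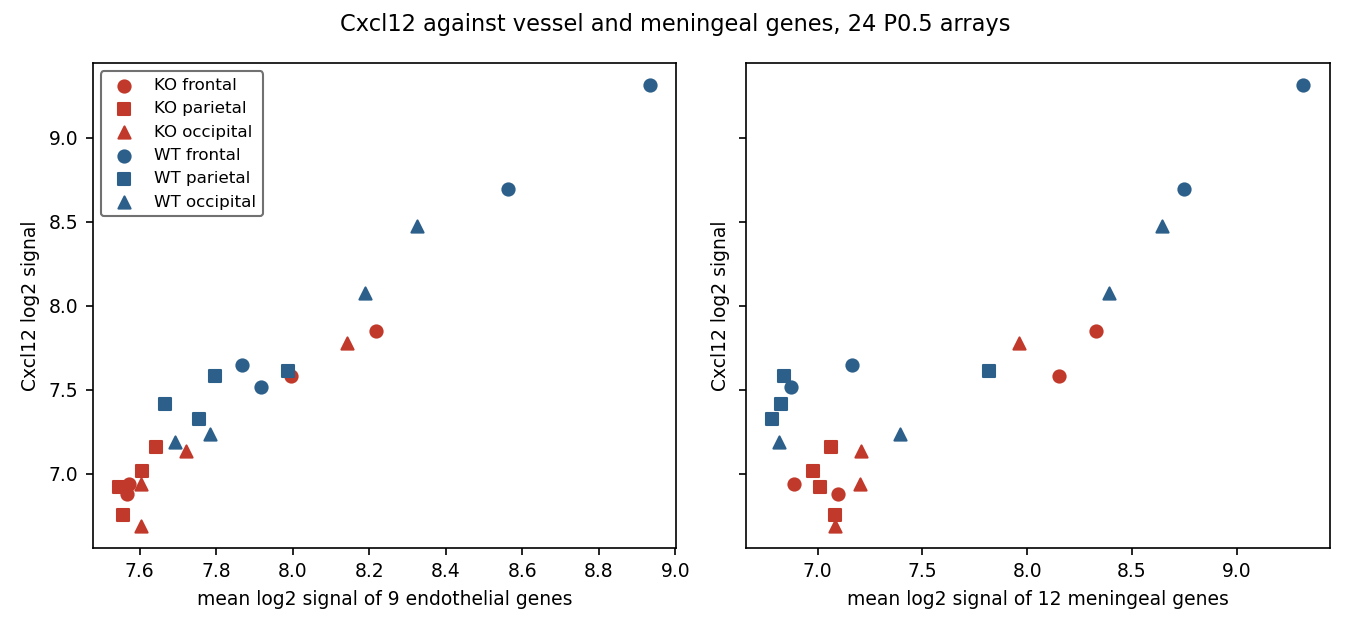
Cxcl12 log2 signal in each of the 24 P0.5 arrays against the mean log2 signal of 9 endothelial genes (left) and of 12 meningeal fibroblast genes (right), with KO in red, WT in blue and the region as the symbol. The points follow one line against the endothelial mean (r = 0.974), while the arrays with low meningeal means hold most of the lower Cxcl12 values, with KO below WT among them.

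Cxcr4 was also lower in KO tissue over the regions, by a small step of 1.15-fold. Its mean over the regions was 9.999, 9.94, 9.80 and 9.80 in KO tissue, against 10.07, 10.14, 10.08 and 10.05 in WT tissue. With arrays grouped by number, the groups did not overlap, and the gap between the highest KO and the lowest WT value was narrow. The SE and adjusted p of these averaged values depend on that grouping, as for Cxcl12. The difference was -0.20 (SE 0.0511, 95% interval -0.31 to -0.09, adjusted p = 0.0254). The call ended without KO number 3 (adjusted p = 0.0802), without KO number 4 (0.106), without WT number 2 (0.0610), in the fit of all 24 arrays (0.0971) and with the Y-linked covariate, where the difference was -0.14 (adjusted p = 0.9998). That covariate runs with genotype over the averaged values, as for Cxcl12, so its fit cannot part the effects of sex and genotype. The Cxcr4 difference over the regions cannot be fully told apart from a difference in sex.

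In the single regions no Cxcr4 difference was called. In frontal tissue its signal was 9.80, 9.89, 9.52 and 9.78 in KO samples, against 10.11, 10.20, 9.67 and 9.84 in WT samples, with overlap. In parietal tissue it was 9.78, 10.21, 9.77 and 9.71 in KO samples, against 9.996, 10.12, 10.34 and 10.19 in WT samples, where KO replicate 2 alone lay inside the WT range. In occipital tissue it was 10.42, 9.72, 10.11 and 9.90 in KO samples, against 10.11, 10.09, 10.25 and 10.13 in WT samples, and the KO samples spread around the WT ones. The differences were -0.21 (SE 0.130, adjusted p = 0.284) in frontal, -0.29 (adjusted p = 0.450) in parietal and -0.11 (adjusted p = 0.818) in occipital tissue. With array weights the parietal difference was -0.41 (adjusted p = 0.00979).

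Cxcr4 was lowest in frontal tissue in both genotypes. Its means were 9.75 ± 0.16 in KO frontal, 9.87 ± 0.23 in KO parietal and 10.04 ± 0.30 in KO occipital tissue, and 9.96 ± 0.25 in WT frontal, 10.14 ± 0.07 in WT occipital and 10.16 ± 0.14 in WT parietal tissue (SD, n = 4 each). Neighbours in either order differed by less than the SD of at least one of the pair. The frontal minus occipital difference was -0.29 in KO tissue (adjusted p = 0.289), where 3.22% of all genes were called, and -0.19 in WT tissue (adjusted p = 0.341), where 6.03% were called.

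Some markers of Cajal-Retzius cells, which carry Cxcr4, were lower in KO tissue beside it. Of 9 such genes, 4 were called lower over the regions and none higher, where 2.75% of all genes were called lower. Reln, the secreted signal of these cells, differed by -0.53 (adjusted p = 4.9e-05), and Nhlh2, a helix-loop-helix factor, by -0.49 (adjusted p = 5.1e-05). Trp73, the p53 relative of these cells, differed by -0.25 (adjusted p = 0.00567). The median of the list was -0.25, against -0.013 over all genes. Its mean was 7.17 to 7.31 in KO frontal and 7.47 to 7.52 in WT frontal arrays, 7.08 to 7.34 in KO parietal and 7.44 to 7.56 in WT parietal arrays, and 7.26 to 7.56 in KO occipital and 7.39 to 7.90 in WT occipital arrays. Its correlation with Cxcr4 over the 24 arrays was r = 0.431, and 0.030 once group means were removed. With Cxcl12 the same list correlated more closely, at r = 0.620, and at 0.514 once group means were removed. Of 13 interneuron genes, 1 was called over the regions, where 7.46% of all genes were. This was the neuropeptide gene Sst (0.38, adjusted p = 0.0101), and the list median was 0.044. The striatum list correlated with Cxcr4 at r = 0.532 (Spearman rho = 0.546), and at 0.485 once group means were removed. The interneuron list was at r = 0.194, and at 0.480 once group means were removed. The neocortical projection neuron list was at r = 0.112, and at 0.664 once they were removed. Of the 7 measured striatum genes, 3 were called lower over the regions and 1 higher, so the list had no common direction. The 3 called lower were the dopamine receptor gene Drd1 (-0.91, adjusted p = 1.1e-06), Ppp1r1b (-0.39, adjusted p = 0.00123), whose product is the phosphoprotein DARPP-32, and Ebf1 (-0.43, adjusted p = 0.00726), a transcription factor. The 1 called higher was a second dopamine receptor gene, Drd2 (0.21, adjusted p = 0.0310). The striatum mean was 7.14 to 7.43 in KO frontal and 7.43 to 7.59 in WT frontal arrays, 7.18 to 7.62 in KO parietal and 7.44 to 7.87 in WT parietal arrays, and 7.11 to 7.81 in KO occipital and 7.23 to 7.73 in WT occipital arrays. The parts of Cajal-Retzius cell and striatal RNA in the Cxcr4 difference were not tested.

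No Ackr3 difference between genotypes was called in any comparison. Its signal was 7.39 to 7.63 in KO frontal and 7.29 to 7.60 in WT frontal samples, 7.42 to 7.75 in KO parietal and 7.36 to 7.84 in WT parietal samples, and 7.36 to 7.72 in KO occipital and 7.50 to 7.96 in WT occipital samples. The ranges overlapped in every region. The KO minus WT difference over the regions was -0.045 (SE 0.0522, adjusted p = 0.706), with a 95% interval of -0.16 to 0.07. Group means ran from 7.47 ± 0.11 in KO frontal to 7.55 ± 0.18 in KO occipital tissue and from 7.49 ± 0.13 in WT frontal to 7.64 ± 0.21 in WT occipital tissue (SD, n = 4 each), and no neighbours differed beyond their spread.

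Across arrays the receptors varied together. Cxcr4 and Ackr3 correlated at r = 0.691 over the 24 P0.5 arrays and at 0.709 with group means removed. The genes most like Ackr3 were Hnrnpa2b1 (r = 0.712), an RNA-binding protein, Abcb8 (r = 0.696), a mitochondrial transporter, and Cxcr4 itself as the third. The genes most like Cxcr4 were Tmeff1 (r = 0.797), Camk1g (r = 0.793), a calmodulin-dependent kinase, and Lyar (r = 0.792). Cxcl12 correlated with Cxcr4 at only 0.237 and with Ackr3 at 0.266. These values are descriptions over arrays that share normalisation.

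Cxcl14 had no common direction over the P0.5 regions. In occipital tissue its signal was 8.38, 8.005, 8.10 and 7.93 in KO samples, against 7.90, 7.71, 7.73 and 7.69 in WT samples, and every KO sample lay above every WT sample. The occipital difference was 0.34 (SE 0.122, 95% interval 0.09 to 0.60) and was not called (adjusted p = 0.224). In occipital tissue the groups did not overlap for 6.26% of all genes. In parietal tissue the signal was 7.81, 8.08, 7.67 and 7.87 in KO samples, against 8.27, 7.99, 7.85 and 8.13 in WT samples, with overlap and a difference of -0.20 (adjusted p = 0.726). In frontal tissue it was 7.81, 7.54, 7.47 and 7.95 in KO samples, against 7.76, 7.86, 7.47 and 7.40 in WT samples, and the difference was 0.068 (adjusted p = 0.726). Over the regions the difference was 0.070 (adjusted p = 0.637).

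The region with the highest Cxcl14 was not the same in both genotypes. In KO tissue the means were 7.69 ± 0.23 in frontal, 7.86 ± 0.17 in parietal and 8.10 ± 0.20 in occipital samples, and in WT tissue they were 7.62 ± 0.22 in frontal, 7.76 ± 0.10 in occipital and 8.06 ± 0.18 in parietal samples (SD, n = 4 each). The frontal minus occipital difference was -0.41 in KO samples (SE 0.122, adjusted p = 0.0644), and the frontal minus parietal difference was -0.44 in WT samples (adjusted p = 0.169). Parietal minus occipital was -0.24 in KO samples (adjusted p = 0.721) and 0.30 in WT samples (adjusted p = 0.491). The interaction, the parietal minus the occipital KO minus WT difference, was -0.55 (SE 0.173, 95% interval -0.90 to -0.19). It ranked 94 of 19938 genes by p and was not called (adjusted p = 0.830).

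None of the members was called between regions of a genotype or in an interaction. The share of all genes called was 0.236% for frontal against parietal and 0.351% for parietal against occipital tissue in KO mice, and 0.171% and 0.451% for the same pairs in WT mice. For the interactions it was 0.416% for frontal against occipital, and 0.01% for each of the other pairs. At p under 0.05 before adjustment, 2 of the 4 members passed in frontal against occipital KO tissue (as 2883 of all 19938 genes did), 2 in frontal against parietal WT tissue (2568 genes, 12.9%) and 1 in parietal against occipital WT tissue (1527 genes, 7.66%). In the parietal against occipital interaction 1 member passed, Cxcl14, and 3.93% of all genes did. None passed in the other 5 of these 9 comparisons.

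The P0.5 array gene most like Cxcl14 was Gad1 (r = 0.766), which makes GABA, followed by Fgf13 (r = 0.763), an intracellular FGF family member, and Tm7sf3 (r = 0.760). Gad1 itself differed by 0.083 between KO and WT tissue over the regions (adjusted p = 0.473). The mean of the 13 interneuron genes correlated with Cxcl14 at r = 0.469, at 0.339 within the 12 KO arrays and 0.564 within the 12 WT arrays. That of 9 radial glia genes did so at r = 0.583, at 0.786 within the KO arrays and 0.415 within the WT arrays. Once group means were removed, the interneuron list was the closer, at 0.628 against 0.342 for radial glia. In occipital tissue, where Cxcl14 separated, the interneuron mean was 8.87 to 9.13 in KO and 8.78 to 9.02 in WT arrays, and the radial glia mean was 9.48 to 9.75 in KO and 9.30 to 9.50 in WT arrays. The radial glia means had the same region order as Cxcl14 in KO tissue, with 9.30 in frontal, 9.42 in parietal and 9.61 in occipital arrays, and not in WT tissue, with 9.05, 9.33 and 9.36. Of the 9 radial glia genes, 5 were called higher in KO tissue over the regions, where 7.46% of all genes were called in either direction. These were led by the transcription factor genes Pax6 (0.34, adjusted p = 0.00370), Hes1 (0.32, adjusted p = 0.00655) and Sox2 (0.22, adjusted p = 0.0131). In occipital tissue, where 1.34% of all genes were called, none of the radial glia genes was. The parts of interneuron and radial glia RNA in the Cxcl14 values were not tested.

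**Figure D3:**
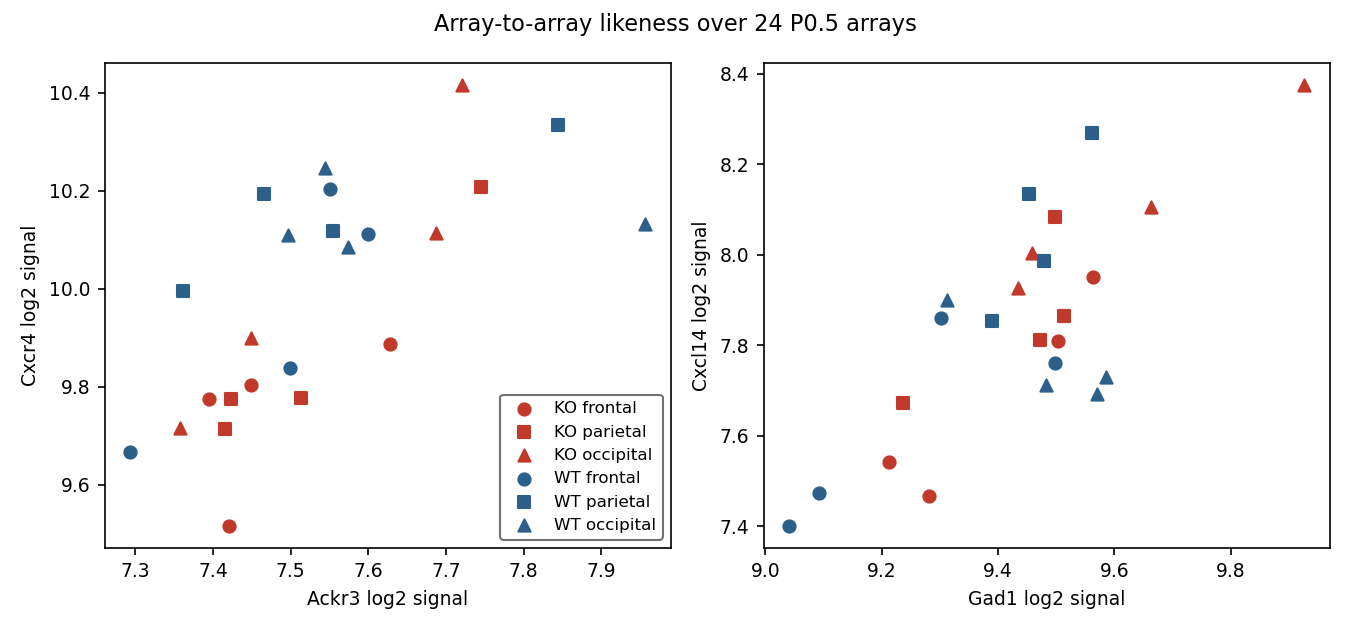
Cxcr4 against Ackr3 (left) and Cxcl14 against Gad1 (right), as log2 signals in each of the 24 P0.5 arrays, with KO in red, WT in blue and the region as the symbol. The receptors vary together (r = 0.691), and the KO occipital array with the highest Cxcl14 (8.38) also has the highest Gad1 (9.93).

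At E14.5 none of the members was called, as no gene was called in neocortex at that stage: 0 of 18194 genes (0%) passed in limma, and 1048 had p under 0.05 before adjustment, none of them a member. Cxcl14 had the largest difference of the members and the largest spread. Its signal was 8.54, 6.63 and 5.24 in KO samples, against 5.21, 5.44 and 5.52 in WT samples. KO replicates 1 and 2 were high, and KO replicate 3 lay inside the WT range. Xist was 9.58, 10.17 and 5.07 in the same KO samples, against 5.01, 10.76 and 5.41 in WT samples. The part of sex in the Cxcl14 values was not tested. The Cxcl14 difference was 1.42 (SE 0.714, 95% interval -0.25 to 3.08, adjusted p = 0.884). It was 0.55 without KO replicate 1, 2.196 without KO replicate 3, and 0.17 with array weights. The second Cxcl14 probe set gave the same order in KO samples, with 9.38, 7.73 and 4.57, against 4.27, 4.83 and 4.70 in WT samples, a difference of 2.63.

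None of the meningeal, choroid plexus or endothelial genes was called at E14.5. The 12 meningeal genes averaged 7.96, 8.34 and 7.29 in KO samples, against 6.67, 6.82 and 6.94 in WT samples, with a median difference of 0.90 against 0.056 over all genes. The 7 choroid plexus genes averaged 6.99, 6.82 and 7.22 in KO samples, against 5.47, 6.19 and 6.64 in WT samples, with differences between -0.017 for Kl and 2.11 for Aqp1. The 9 endothelial genes averaged 6.83, 6.61 and 6.48 in KO samples, against 6.48, 6.12 and 6.45 in WT samples. KO and WT ranges did not overlap for the meningeal and choroid plexus means and overlapped for the endothelial mean. Their part in the Cxcl14 values was not tested.

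Cxcl12 at E14.5 was 7.24, 8.84 and 7.86 in KO samples, against 7.82, 7.50 and 7.38 in WT samples. KO replicate 2 was the highest and also had the highest meningeal mean. The difference was 0.41 (SE 0.384, adjusted p = 0.968), and -0.02 without that sample. The other Cxcl12 probe sets gave 0.07 and 0.28. Cxcr4 was 7.79, 7.26 and 7.27 in KO samples, against 7.54, 7.32 and 7.15 in WT samples, a difference of 0.10 (SE 0.214). Ackr3 was 9.82, 8.92 and 9.44 in KO samples, against 9.44, 9.25 and 9.49 in WT samples, with a 95% interval of the difference of -0.57 to 0.57. The E14.5 and P0.5 arrays are of different types, so levels are not compared between stages.

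**Figure D4:**
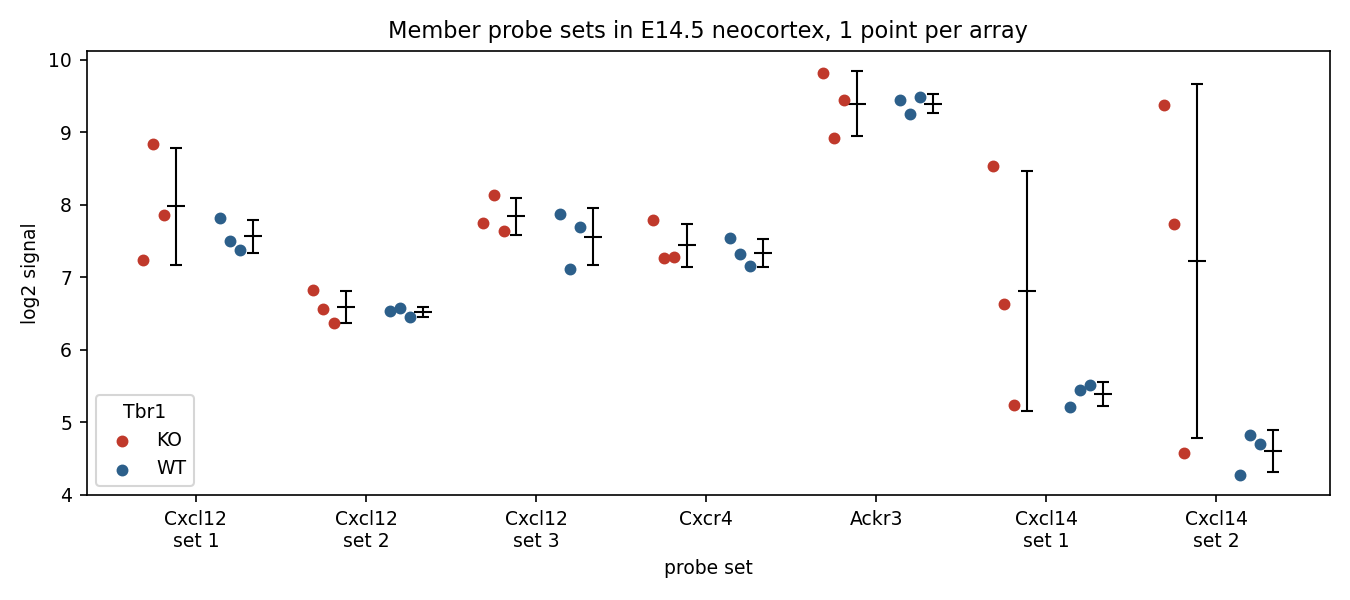
Log2 signal of every member probe set in E14.5 neocortex, with KO in red and left of WT in blue, 1 point per array and the mean with SD as a bar (3 arrays per group). Both Cxcl14 sets spread over more than 3 log2 units in KO samples, and the other sets overlap between the genotypes.

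**Figure D5:**
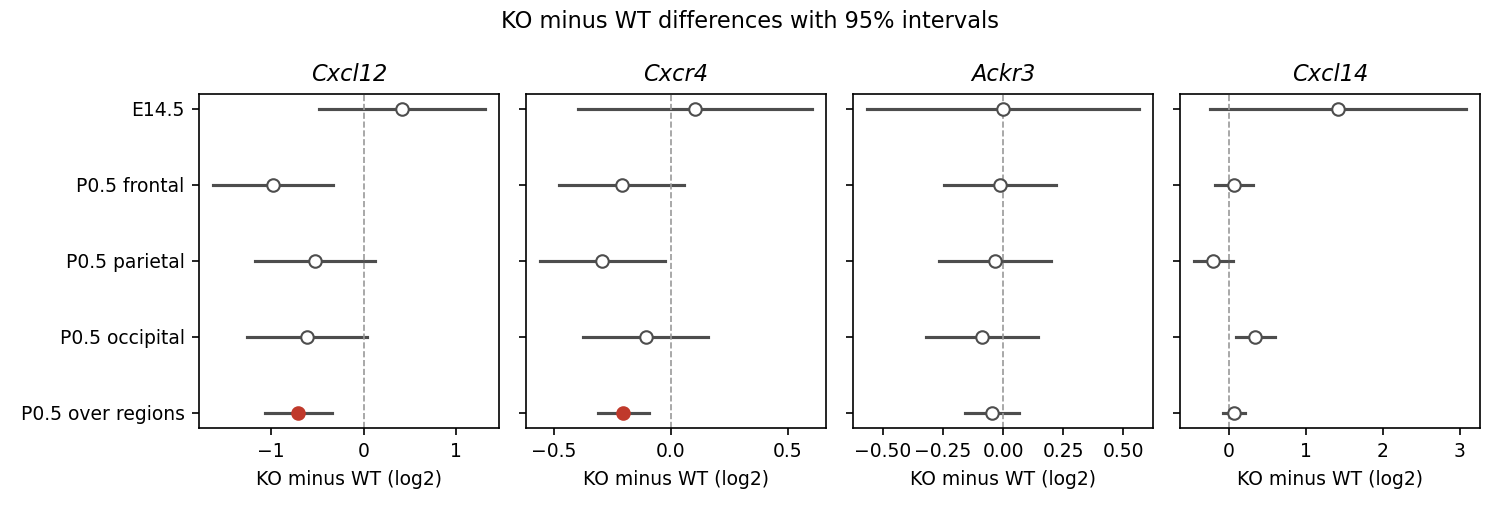
KO minus WT differences of the 4 genes on the log2 scale, with 95% intervals, at E14.5, in each P0.5 region and over the P0.5 regions. Filled points passed an adjusted p of 0.05, which Cxcl12 (-0.70) and Cxcr4 (-0.20) did over the regions, and the horizontal scale differs between the genes.

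Few other chemokines and receptors were called. Of 30 further ligands, 20 were among the dimmest 30% of genes at P0.5, and over the regions 1 was called, where 7.46% of all genes were: Ccl3 (0.60, adjusted p = 0.00353), a macrophage chemokine. In frontal tissue, where no member of the axis and 7.52% of all genes were called, 2 ligands and 1 receptor were. Ccl3 was 8.52, 7.23, 7.70 and 8.39 in KO samples, against 6.95, 6.81, 6.69 and 7.08 in WT samples, and every KO sample was higher (difference 1.08, adjusted p = 0.00277). Ccl2, a monocyte chemokine, fell in frontal tissue by 0.39 (adjusted p = 0.00907). Of 9 microglia genes, 4 were called higher over the regions. Of 20 further receptors, 13 were dim, 0 were called over the regions, and the scavenger Ackr2 was called in frontal tissue (-0.42, adjusted p = 0.00776).

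Among 17 measured genes of Cxcr4 and Ackr3 signalling and turnover, 2 were called higher and 1 lower over the regions, against 7.46% of all genes called in either direction, with a list median of 0.034. Grk5, a kinase that phosphorylates active G protein-coupled receptors, was the one called lower. Its frontal signal was 8.24, 8.07, 7.85 and 8.22 in KO samples, against 8.43, 8.49, 8.85 and 8.45 in WT samples. Its parietal signal was 8.002, 8.07, 8.01 and 8.20 in KO samples, against 8.48, 8.55, 8.78 and 8.65 in WT samples. Its occipital signal was 7.93, 7.93, 7.90 and 7.81 in KO samples, against 8.24, 8.51, 8.62 and 8.39 in WT samples. In all 3 regions every KO sample was lower, with differences of -0.46, -0.54 and -0.55 and a difference over the regions of -0.52 (SE 0.0688, adjusted p = 2.4e-04). The groups did not overlap for 7.41% of all genes in parietal and 6.26% in occipital tissue. The share in frontal tissue is not given here.

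Usp14, a proteasome-bound deubiquitinase, was higher in KO tissue over the regions by 0.36 (adjusted p = 6.1e-04) and in frontal tissue by 0.64 (adjusted p = 1.1e-04). Grk3, a second receptor kinase, was higher by 0.24 over the regions (adjusted p = 0.0171) and by 0.43 in frontal tissue (adjusted p = 0.0106). In frontal tissue Grk3 was 8.41, 8.37, 8.47 and 8.63 in KO samples, against 8.28, 8.21, 8.04 and 7.62 in WT samples, without overlap. At E14.5 Grk5 was 5.94, 6.24 and 6.05 in KO samples, against 5.71, 5.60 and 5.89 in WT samples, and none of the 17 genes was called.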

How the data were processed

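The authors' deposited tables hold log2 signals per probe set, made with Affymetrix Expression Console 1.1 and RMA per the submitters' processing notes. They were not normalised again, and array medians lay within 5.12 to 5.15 at E14.5 and 7.42 to 7.52 at P0.5. The E14.5 and P0.5 tables, with 45101 and 35557 probe sets, have different probe set names, so they were fitted apart. Probe sets naming several genes (932 and 1621) or none (9211 and 12147) were left out, and a gene took its set with the highest mean. No filter on dim genes was applied, and all 4 members pass one that drops the dimmest 30%. Arrays have no read depth, and the few per group limit the precision.

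Each difference is a two-sided limma 3.58.1 estimate (R 4.3.3, eBayes with trend), Benjamini-Hochberg adjusted over all genes of a comparison, and called at an adjusted p under 0.05. The P0.5 regions came from 1 fit of 24 arrays in 6 groups. Over the regions, arrays of one genotype and number were averaged to 4 KO and 4 WT values. By the Y-linked mean, none of the 4 KO numbers marks 1 animal across regions, and not every WT number does. The averaged values are therefore groupings by label and not animals. Their SEs, adjusted p, overlap and leave-out results depend on that grouping, while the mean difference does not. The fit was tested on simulated data. Genes named are Tbr1, the members, up to 3 called genes per fixed list by smallest p, genes at the ends of a range, and the 3 genes with the highest Pearson r with each member. Drd2 is also named as the striatum gene called higher, and Xist as a marker of female cells. The members and the 19 lists (208 genes) were chosen with earlier results of these data known.

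Alternatives were the mean of probe sets, dropping the dimmest 30%, subtracted array medians, no trend, array weights, the Y-linked mean as a covariate, the replicate number as a block, a fit of only the arrays compared or of all 24, and leaving out each array. Residuals of same-numbered arrays correlated at 0.125 to 0.445 between E14.5 KO and WT (3 of 3 over 0.1) and at 0.124 to 0.276 between WT parietal and WT occipital tissue (4 of 4 over 0.1), which counts as paired. In the other 8 pairs of groups at least 1 pair lay under 0.1, down to -0.471 for frontal KO and WT.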

Additional observations from a re-analysis of the deposited data

Results flagged for a closer look

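In the KO parietal group Cxcr4 was 10.21 in replicate 2, far from the other 3 samples, which lay between 9.71 and 9.78. In the WT occipital group Ackr3 was 7.96 in replicate 4, while the other 3 samples lay between 7.50 and 7.57. Both gaps exceeded Dixon's 95% critical value for 4 samples, which chance passes in about 1 group of 20, and 24 groups of 4 samples were tested over the members at P0.5.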

How the results depend on the processing

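Over the 4 genes and 14 comparisons, with the count of members called in each, 70 results were recomputed to 1240 values. Of these, 1157 kept their direction and their side of the threshold or stayed within the limit set for a count. In 50 the sign changed while the value was not called under either setting, 34 of them for Ackr3. In 33 the side of the threshold or the count changed, and 0 reversed a call. In frontal tissue array weights gave Cxcl12 -0.84 (adjusted p = 0.0335), so 1 member was called. Leaving out one array moved the frontal Cxcl12 difference between -1.24 and -0.64 and the count between 0 and 1, and it was called when KO replicate 2, WT replicate 2 or WT replicate 3 was dropped. In parietal tissue array weights gave Cxcr4 -0.41 (adjusted p = 0.00979) and 1 call, and a fit of only those arrays gave Cxcl12 -0.52 (adjusted p = 0.0167) and 1 call. Over the regions the Y-linked covariate gave Cxcl12 -0.31 and Cxcr4 -0.14 (both adjusted p = 0.9998), with 0 calls. Those averaged values cannot part the effects of sex and genotype, as this covariate runs with genotype there. With the covariate in the fit of 24 arrays Cxcl12 was -0.74 (adjusted p = 0.0915) and Cxcr4 -0.24 (adjusted p = 0.238), with 0 calls. In the fit of 24 arrays without it Cxcl12 was called (adjusted p = 0.0115), Cxcr4 was -0.20 (adjusted p = 0.0971) and the count was 1. Leaving out one number moved Cxcl12 between -0.84 and -0.56, Cxcr4 between -0.24 and -0.17 and the count between 0 and 2. For frontal against occipital KO tissue Cxcl14 moved between -0.50 and -0.32 and the count between 0 and 1, called without KO frontal replicate 4 (adjusted p = 0.0341). The causes were not tested.

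With the replicate number as a block, no member changed its call. The E14.5 differences, where the numbers count as paired, had an adjusted p of 0.836 for Cxcl12, 0.913 for Cxcr4 and 0.654 for Cxcl14, and over the regions the blocked fit gave Cxcl12 -0.70 (adjusted p = 0.0282) and Cxcr4 -0.20 (adjusted p = 0.0333). Over all genes the block gave 1298 calls over the regions, against 1488 without it, and 72 for frontal against parietal KO tissue, against 47 without it. Arrays give no depth, and the small number per group limits what these comparisons can show.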
